A study of Mus musculus with 8 samples.

Results

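The nuclear-encoded subunits of respiratory complexes II to V were followed in E14.5 fetal liver of embryos without EKLF (KLF1), an erythroid transcription factor that binds CACCC motifs. Members were all probe sets on the array whose only gene symbol names a subunit of succinate dehydrogenase (Sdha to Sdhd), cytochrome bc1 (Uqcr genes and Cyc1), cytochrome c oxidase (Cox4 to Cox8 genes) or ATP synthase (Atp5 genes). This rule took 92 of the 45101 probe sets, and these name 47 of the 18193 genes with a probe set of their own. Cox7b was named by no probe set with a single symbol. RNA was measured in 4 Eklf-/- livers (KO, replicates 2 to 5), homozygous for an engineered Eklf locus made with E2A-Cre in B6 mice, and in 4 wild-type livers (WT, replicates 1 to 4), with 1 array for each liver. Neither group was treated, and the whole liver was used, so every value is an average over its blood-forming, hepatic and stromal cells. In such bulk RNA, fewer cells of a type and less RNA per cell cannot be told apart. The title codes of the arrays differ between KO and WT, so a separate preparation of each genotype and the genotype itself cannot be told apart.

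Complexes II, III and IV pass electrons from succinate and ubiquinol to oxygen, and complex V uses the proton gradient built by the chain to make ATP. Complex II is encoded wholly in the nucleus, whereas cytochrome b of complex III, the catalytic core of complex IV and part of the membrane sector of complex V come from mitochondrial DNA, whose genes had no probe set in the list examined here. The nuclear subunits of complex IV and the c ring of complex V have alternative forms that differ between tissues. Erythroblasts, the main cell type of the fetal liver at this age, depend on mitochondria for heme synthesis and discard them as they mature.

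Promoters of 4 members are shown because they carry the contrasts described below: on the deposited scale Uqcr11 had the largest fall when each gene was read by its brightest probe set, the KO and WT arrays of Atp5g2 overlapped while its sister genes were lower, and Cox6b2 and Cox6b1 encode alternative forms of a complex IV subunit that moved in opposite directions. Each sequence is the RefSeq promoter window of build GRCm38.p6, from 250 bases before to 50 bases after the gene's start, read 5′ to 3′ on the gene's strand. Capitals mark CACCC (or GGGTG on the other strand), the ETS-type motif CCGGAAGT (or ACTTCCGG) and the NRF1-type core GCATGCGC (or GCGCATGC). The forward and reverse NRF1-type cores overlap where both occur together, as in Atp5g2.
Uqcr11, chr10:80406772-80407071, minus strand: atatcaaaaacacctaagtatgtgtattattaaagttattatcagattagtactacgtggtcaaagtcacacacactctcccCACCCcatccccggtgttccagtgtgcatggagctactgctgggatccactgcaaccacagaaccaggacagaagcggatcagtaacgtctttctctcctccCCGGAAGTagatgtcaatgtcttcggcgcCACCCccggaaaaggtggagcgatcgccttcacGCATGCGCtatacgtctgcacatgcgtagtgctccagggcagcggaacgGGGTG
Atp5g2, chr15:102670998-102671297, minus strand: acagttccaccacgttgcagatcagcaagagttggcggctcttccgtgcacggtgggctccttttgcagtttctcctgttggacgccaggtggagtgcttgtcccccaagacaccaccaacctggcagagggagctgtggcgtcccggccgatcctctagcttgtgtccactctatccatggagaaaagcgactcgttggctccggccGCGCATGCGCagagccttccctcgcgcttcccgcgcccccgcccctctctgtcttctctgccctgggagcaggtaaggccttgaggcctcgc
Cox6b2, chr7:4753045-4753344, minus strand: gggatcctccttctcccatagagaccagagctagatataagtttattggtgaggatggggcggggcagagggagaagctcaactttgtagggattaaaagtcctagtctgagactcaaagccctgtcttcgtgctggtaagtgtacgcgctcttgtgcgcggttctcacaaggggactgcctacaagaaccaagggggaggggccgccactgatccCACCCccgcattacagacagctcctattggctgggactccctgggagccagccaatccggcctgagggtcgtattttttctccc
Cox6b1, chr7:30626065-30626364, minus strand: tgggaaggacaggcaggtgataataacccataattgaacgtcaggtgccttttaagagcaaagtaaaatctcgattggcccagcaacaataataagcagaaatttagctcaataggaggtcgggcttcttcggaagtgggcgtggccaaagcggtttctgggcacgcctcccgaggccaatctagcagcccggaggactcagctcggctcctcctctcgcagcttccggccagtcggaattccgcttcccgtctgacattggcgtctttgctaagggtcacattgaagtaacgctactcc
The Uqcr11 window held 3 matches to CACCC, 1 to the ETS-type motif and 1 to the NRF1-type core. The Cox6b2 window held 1 CACCC, and none of these letters occurred in the Cox6b1 window. Of the 47 members, 35 had a promoter entry. CACCC was found in 20 of these 35 (57.1%), against 59.8% of all 27025 genes in the table. The ETS-type motif was found in 4 (11.4%), namely Uqcrh, Uqcr11, Cox8a and Atp5h, against 4.31% of all genes. The NRF1-type core was found in 7 (20.0%), namely Sdhb, Uqcrc1, Uqcr11, Cox6a1, Atp5g2, Atp5k and Atp5l, against 3.05% of all genes. Of the 22 members with an entry that were called lower in KO, 5 held the NRF1-type core, as did 2 of the 10 that were tested and not called. A match is a run of letters and not a measured binding site.

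On the scale of the deposited signals, 28 of the 44 tested member genes were lower in KO than in WT, 2 were higher and 14 were not called, counts that depended on how arrays were scaled to each other. A gene was represented by its brightest probe set, compared on the log2 scale with limma, and called at a Benjamini-Hochberg adjusted p under 0.05 over all 23379 probe sets tested. Probe sets were tested where the KO or WT mean lay above a signal of 100 (log2 6.64), and Cox4i2, Cox7b2 and Cox8b did not reach it. Over all 11292 genes tested, 21.0% were called lower and 25.6% higher in KO. The KO arrays all lay below the lowest WT array in 30 of the 44 members, against 20.9% of all genes. They all lay above the highest WT array in 2 members, against 24.4% of all genes. The median log2 difference (KO minus WT) of the members was -0.48, a 1.40-fold lower signal in KO, and that of all tested genes was 0.060.

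Members were among the brightest genes on the arrays, and bright genes as a whole were lower in KO. Of the 1052 genes with a mean log2 signal above 12, 51.1% were called lower and 10.1% higher. In the same range 26 of the 39 members were lower and 1 was higher, with a median of -0.52. Between 12 and 13 the median log2 difference of all genes was -0.23, and above 13 it was -0.45. Above 13 the members had a median of -0.59, with 18 of 22 called lower, against 274 of the 411 genes in that range. At the dim end, all genes below 8 had a median of 0.24. The highest signal of any probe set was 32642 to 39185 in KO arrays and 54914 to 60411 in WT arrays, so the range of the signals differed between the genotypes. The highest member signal was 19279 to 24337 in KO and 32194 to 36870 in WT.

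**Figure D1:**
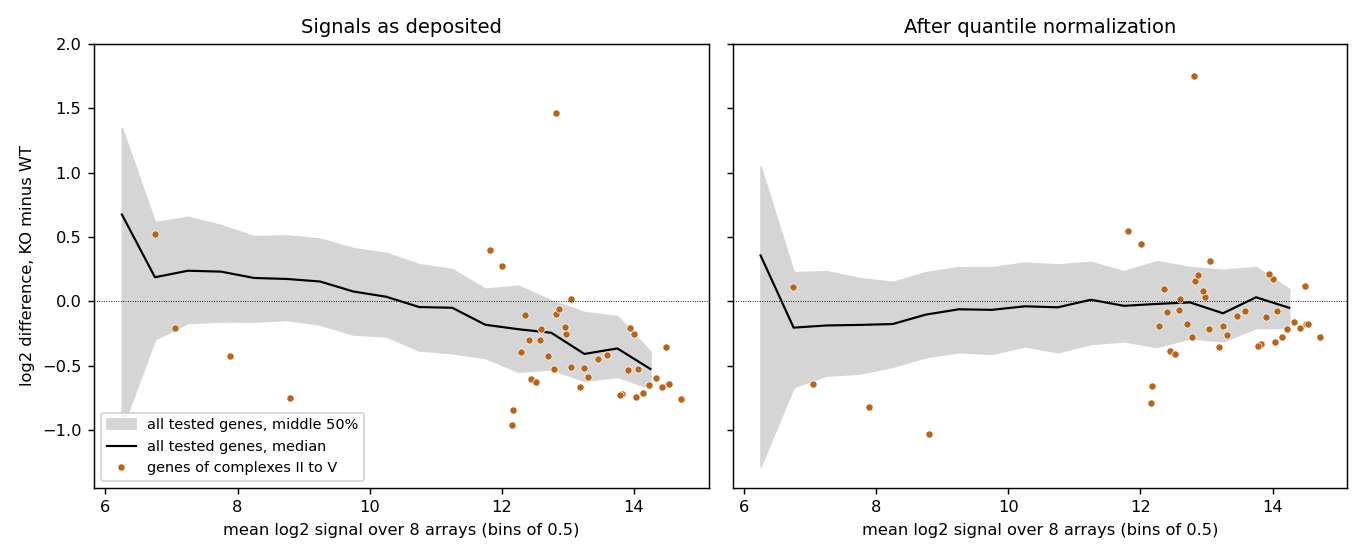
Log2 difference (KO minus WT, vertical axis) against the mean log2 signal over the 8 arrays (horizontal axis) for the 44 tested genes of complexes II to V (points), with the median (line) and middle 50% (band) of all tested genes in bins of 0.5. With the deposited signals (left) bright genes and most members lie below 0, and after quantile normalization (right) the line is near 0 for bright genes and the members' median is -0.18.

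Quantile normalization, which gives every array the same distribution of signals, left 10 members lower and 4 higher. These were 22.7% and 9.09% of the members, against 25.8% lower and 16.6% higher over all genes. Of the 10, 9 had also been lower on the deposited scale. Among the bright members 7 were then lower and 3 higher, against 21.9% lower and 20.3% higher of all bright genes. The members' share called lower was thus no larger than that of other genes under this normalization. Scaling to the 75th percentile called 40 members lower (36.8% of all genes), and scaling to the poly-A controls 18 (14.9% of all genes). Scaling to the hybridisation controls called 0 members lower in limma (0 at an unadjusted p under 0.05 and 0 by the methods' t-test) and 18 higher, with 75.2% of all genes higher. These scalings moved the median of all genes to -0.20, -0.026 and 0.81 on the log2 scale, while the members' median stayed 0.54 below it in each. After quantile normalization that gap was 0.088. Differences of single members are given below on the deposited scale, where the median of all genes was 0.060.

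**Figure D2:**
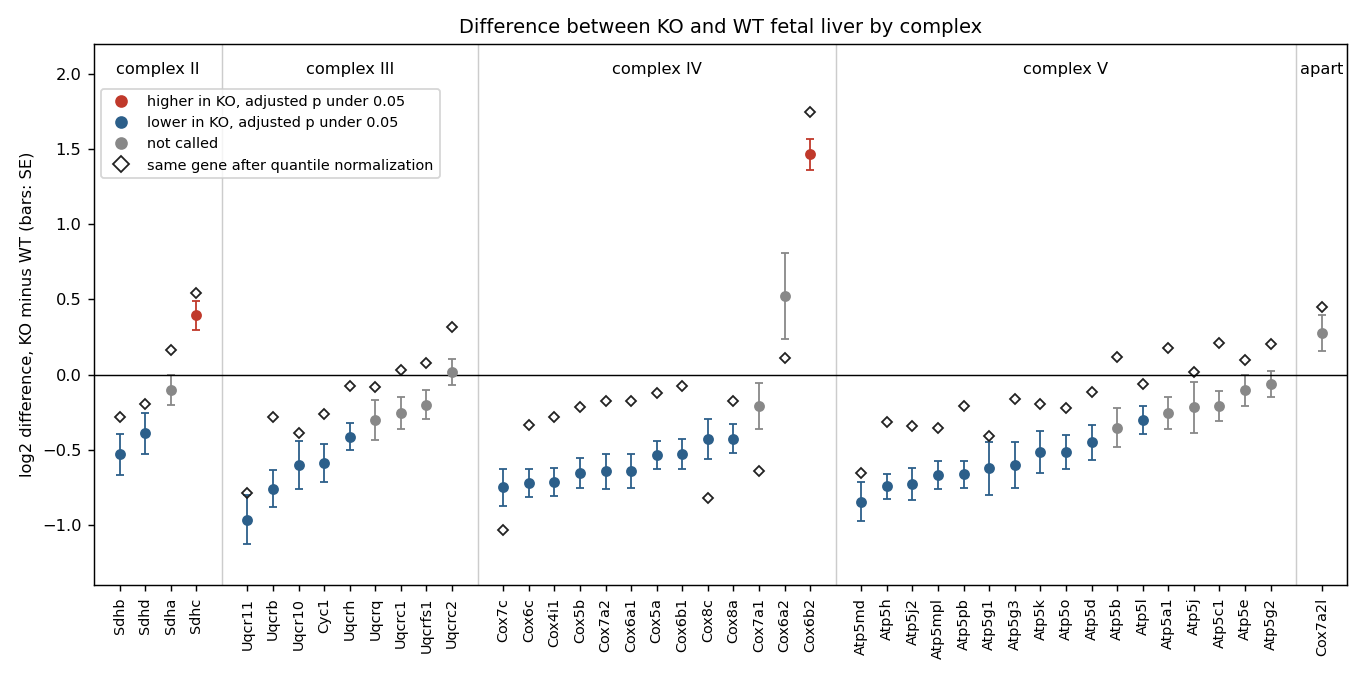
Log2 difference (KO minus WT, vertical axis; bars are the standard error) of the 44 tested genes by complex (filled points, coloured by call), with the same gene after quantile normalization (open diamonds). Most subunits of complexes III, IV and V lie below 0 with the deposited signals, Cox6b2 and Sdhc lie above 0 under both, and scaling to the hybridisation controls, which moves all genes up alike, turns all medians by complex positive.

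The 4 KO arrays did not fall equally. The median deviation of the 44 members from the WT mean was -0.40, -0.60, -0.30 and -0.56 on the log2 scale in KO replicates 2 to 5, against 0.021, -0.014, 0.046 and -0.045 in WT replicates 1 to 4. KO replicates 3 and 5 were the lower ones, and all 4 KO arrays lay below all WT arrays. KO replicate 3 was the lowest KO array for 28 of the 44 members and KO replicate 4 the highest for 25. Complex IV had the lowest median of the 4 complexes in KO replicates 2, 3 and 4, and complex V in KO replicate 5.

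**Figure D3:**
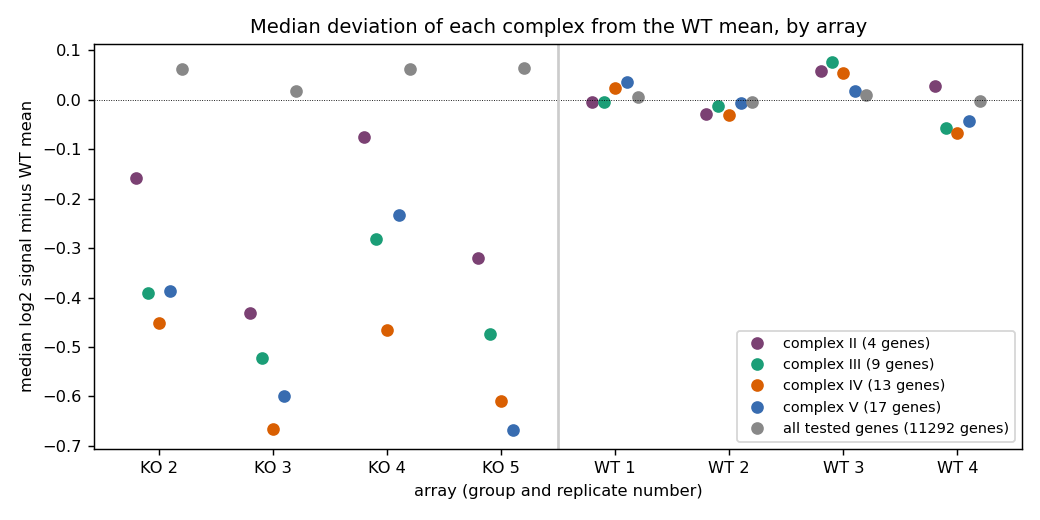
Median deviation of the log2 signal from the WT mean (vertical axis) over the tested genes of each complex and over all tested genes, in each array (horizontal axis, KO left of WT). The medians of all 4 complexes are below 0 in every KO array on the deposited scale, furthest in replicates 3 and 5, whereas all genes lie between 0.018 and 0.064 in the KO arrays.

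**Figure D4:**
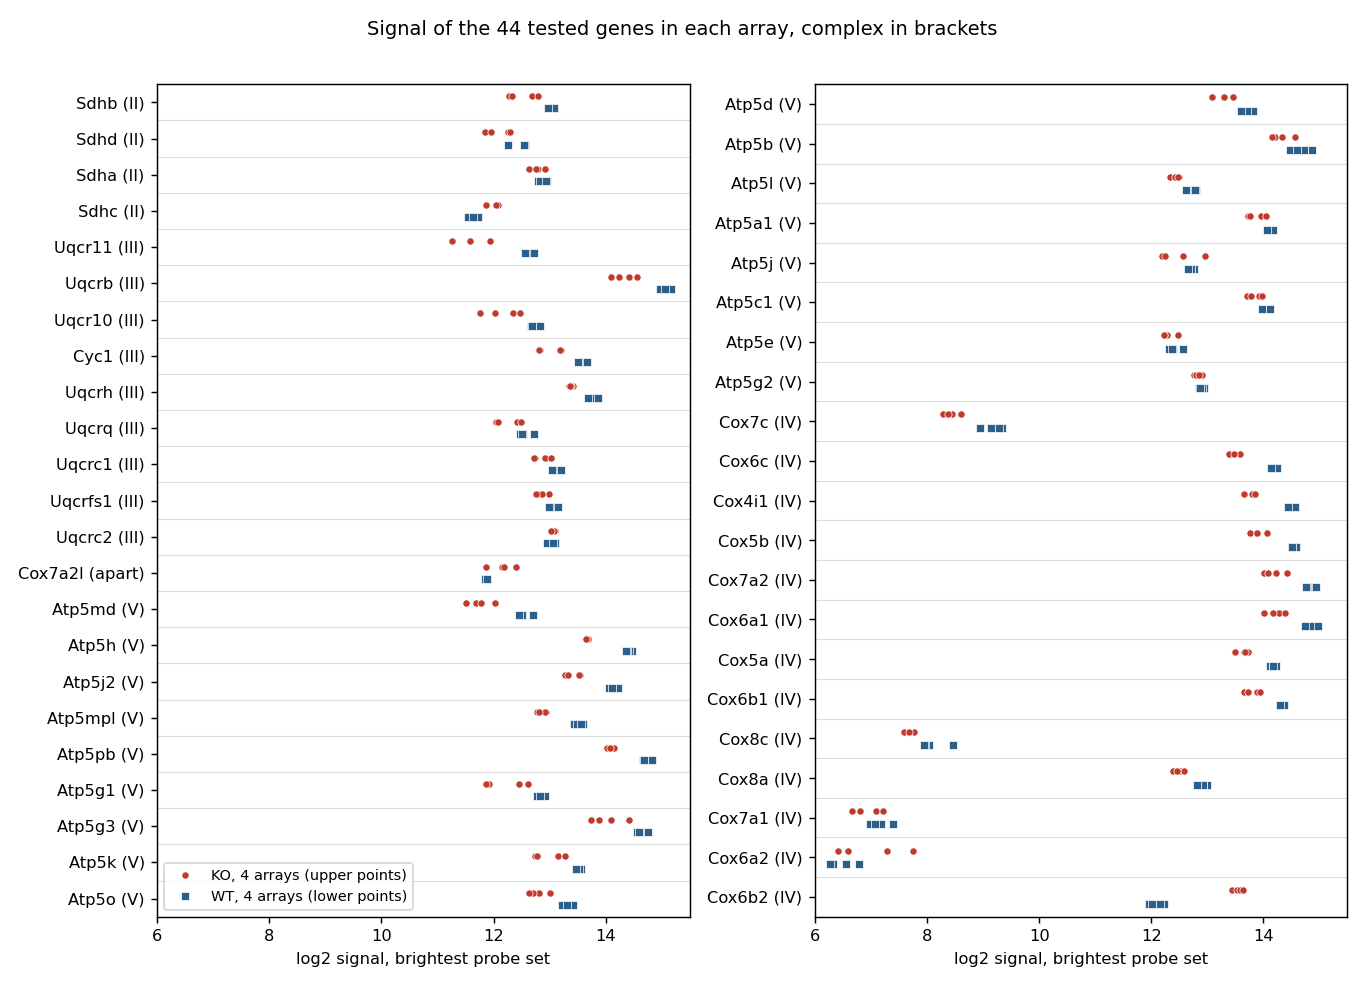
Log2 signal of the brightest probe set (horizontal axis) of the 44 tested genes in the 4 KO arrays (circles) and the 4 WT arrays (squares), with the complex in brackets and Cox7a2l apart. Levels of different probe sets are not comparable, and KO and WT points separate for Cox6b2 (KO higher) and for most of complex IV (KO lower) on the deposited scale.

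In complex II, succinate dehydrogenase, the directions were mixed on the deposited scale. Sdhb and Sdhd were lower in KO, Sdhc was higher, and Sdha did not pass the test, with a median log2 difference of -0.25 over the 4 genes. The 50% called lower was close to the 51.1% of all genes with a mean log2 signal above 12. Only Sdhc of the 4 had a mean below that, at 11.82. Sdhb, the iron-sulfur subunit, had log2 signals of 12.68, 12.28, 12.79 and 12.33 in KO replicates 2 to 5, against 13.06, 13.07, 13.09 and 12.98 in WT replicates 1 to 4. The groups did not overlap, KO being lower throughout, with replicates 3 and 5 lowest. The log2 difference was -0.53 (SE 0.14, adjusted p = 0.010), a 1.44-fold lower signal in KO. The call of Sdhb was lost with quantile normalization, which left no gene of complex II called lower, and with poly-A control scaling. It was also lost with the methods' t-test and the replicate block. Sdhc, a membrane anchor that binds heme and ubiquinone together with Sdhd, had 12.07, 11.87, 12.08 and 12.04 in KO, against 11.60, 11.54, 11.72 and 11.63 in WT. All KO arrays lay above all WT arrays, with a log2 difference of 0.40 (SE 0.097, adjusted p = 0.0087), or 1.32-fold. A dimmer probe set of Sdhc overlapped between the groups, and with the median of both probe sets Sdhc was no longer called, as with scaling to the 75th percentile or the poly-A controls. Sdhd, the other anchor, had 12.25, 11.86, 12.30 and 11.96 in KO, against 12.27, 12.56, 12.56 and 12.54 in WT. KO replicate 4 lay above WT replicate 1, which stood below the other WT arrays. This gave a log2 difference of -0.39 (SE 0.14, adjusted p = 0.038), and the call was lost when KO replicate 3 or 5 or WT replicate 2, 3 or 4 was left out (adjusted p up to 0.09). The call of Sdhd was also lost with quantile normalization, poly-A control scaling, no filter, the methods' t-test and the replicate block. Sdha, the flavoprotein that oxidises succinate, had 12.79, 12.64, 12.91 and 12.76 in KO, against 12.96, 12.78, 12.83 and 12.93 in WT. The groups overlapped, and the log2 difference was -0.10 (SE 0.10, adjusted p = 0.41). Its other probe sets went differently. One was not called (log2 difference 0.033), and a dim one had 7.14, 7.75, 7.52 and 7.42 in KO, against 5.24, 6.01, 5.24 and 6.09 in WT. The KO arrays were all above the WT arrays there (log2 difference 1.81, SE 0.24, adjusted p = 0.00035). Its WT arrays were all below the signal minimum, so it entered the test only through KO, and its signal was at least 1.76-fold higher in KO (KO mean over the minimum).

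In complex III, 5 of 9 genes (55.6%) were lower in KO on the deposited scale and 4 were not called, with a median log2 difference of -0.41. All 9 had a mean log2 signal above 12, where 51.1% of all genes were lower. The share of complex III was thus close to that of bright genes. Uqcr11, the smallest subunit in the mammalian complex, had log2 signals of 11.94, 11.25, 11.94 and 11.58 in KO, against 12.64, 12.66, 12.72 and 12.55 in WT. All KO arrays lay below all WT arrays, and replicate 3 was furthest down. The log2 difference was -0.96 (SE 0.16, adjusted p = 0.0013), a 1.95-fold lower signal in KO, the largest fall by the brightest probe set of each gene on the deposited scale. Uqcrb, which contacts the ubiquinone pocket, had 14.42, 14.10, 14.57 and 14.23 in KO, against 15.16, 14.97, 15.17 and 15.06 in WT. The groups did not overlap, and the log2 difference was -0.76 (SE 0.12, adjusted p = 0.0011), or 1.69-fold. Uqcr10, another small subunit, had 12.34, 11.76, 12.47 and 12.02 in KO, against 12.79, 12.68, 12.83 and 12.69 in WT. Each KO array stood below the WT arrays but spread widely, and the log2 difference was -0.60 (SE 0.16, adjusted p = 0.012). Dimmer probe sets of Uqcr10 overlapped between the groups and were not called (log2 differences -0.13 and -0.17). The call was lost with the median of its probe sets, quantile normalization and poly-A control scaling. It was also lost with the methods' t-test and the replicate block.

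Cyc1, the heme-bearing cytochrome c1, was lower by a log2 difference of -0.59 (adjusted p = 0.0043), and Uqcrh, the acidic hinge protein beside it, by -0.41 (adjusted p = 0.0047). Uqcrc1, a core protein, had a log2 difference of -0.25 (adjusted p = 0.075), the Rieske protein Uqcrfs1 one of -0.20 (adjusted p = 0.11) and Uqcrq one of -0.30 (adjusted p = 0.084). Uqcrc2, the other core protein, had a difference of 0.016 (SE 0.087, adjusted p = 0.89). None of these 4 passed the test. After quantile normalization Uqcr11 was the only gene of complex III called lower, with a log2 difference of -0.79 (adjusted p = 0.0050), and Uqcrc2 was then called higher, with 0.32 (adjusted p = 0.016).

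In complex IV, of 13 tested genes 10 were lower in KO, 1 was higher and 2 were not called on the deposited scale, with a median log2 difference of -0.53. Thus 76.9% were lower, against 21.0% of all genes and 51.1% of those with a mean log2 signal above 12. Above 13, where many genes of the complex lay, 274 of 411 genes were lower. Without the forms that belong to particular tissues, all 9 tested genes were lower, with a median of -0.64 and a range of -0.75 to -0.43, but only Cox7c, Cox6c and Cox4i1 of these were called lower after quantile normalization. Cox7c was read by dim probe sets and had log2 signals of 8.28, 8.60, 8.45 and 8.38 in KO, against 9.14, 8.94, 9.33 and 9.28 in WT. All KO arrays lay below all WT arrays, and here replicate 3 was the highest of the KO arrays. This gave a log2 difference of -0.75 (SE 0.12, adjusted p = 0.0012), or 1.68-fold. Cox6c, a small membrane subunit, had 13.41, 13.38, 13.59 and 13.48 in KO, against 14.19, 14.17, 14.24 and 14.13 in WT. The groups were well apart, with a log2 difference of -0.72 (SE 0.093, adjusted p = 0.00033). Cox4i1, the largest nuclear subunit and a site at which ATP slows the enzyme, had 13.84, 13.65, 13.80 and 13.85 in KO, against 14.52, 14.498, 14.56 and 14.44 in WT. The groups did not overlap, and the log2 difference was -0.72 (SE 0.093, adjusted p = 0.00034), or 1.64-fold. Scaled to the hybridisation controls, these 3 genes had log2 differences between -0.00011 and 0.032. Cox5b, the zinc-binding subunit, and Cox5a, beside it on the matrix side, had log2 differences of -0.65 and -0.53 and were both called lower, but had -0.21 and -0.13 after quantile normalization and were not called.

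The tissue-bound forms were examined beside their general partners as the log2 ratio of their signals within an array. Any factor common to the whole array cancels in this ratio. A shift that depends on the signal, as between bright and dim genes above, does not cancel where the partners differ in brightness. Only the change of the ratio between KO and WT has a meaning here, since the levels of different probe sets cannot be compared. Of 11 pairs 8 had probe sets that were tested, but the WT mean of Cox6a2 lay below the signal minimum, so its pair is left aside. In 4 of the other 7 pairs the KO and WT arrays did not overlap (two-sided exact permutation test, 70 assignments of the arrays, p = 0.029 in each, the lowest possible with 4 against 4). The adjusted p was 0.046 over the 8 pairs and 0.05 over the 7, so that none of the 7 passed a threshold of 0.05 without the pair of Cox6a2.

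Cox6b2, known as the testis form of a subunit at the interface of the complex IV dimer, had the largest difference in either direction by the brightest probe set of each gene. Its log2 signal was 13.45, 13.52, 13.58 and 13.64 in KO, against 12.23, 11.96, 12.15 and 12.005 in WT. The 4 KO arrays lay close together and far above all WT arrays. The log2 difference was 1.47 (SE 0.10, adjusted p = 1.5e-05), a 2.76-fold higher signal in KO, and it was called higher under each of the 21 alternatives, with a range of 1.2 to 2.21. Its general partner Cox6b1 had 13.88, 13.66, 13.94 and 13.72 in KO, against 14.36, 14.29, 14.37 and 14.29 in WT. No KO array reached the WT arrays, with a log2 difference of -0.53 (SE 0.10, adjusted p = 0.0025). Quantile normalization gave log2 differences of 1.75 for Cox6b2 and -0.078 for Cox6b1, which was then not called. The log2 ratio of Cox6b2 to Cox6b1 was -0.43, -0.14, -0.35 and -0.073 in KO, against -2.13, -2.33, -2.22 and -2.28 in WT, a change of 1.99. A single probe set measured Cox6b2, and no gene of the reference annotation overlaps it on chromosome 7.

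Cox6a2, the heart and skeletal muscle form of subunit 6a, was dim and uneven. It had log2 signals of 6.60, 7.75, 6.41 and 7.29 in KO, against 6.79, 6.33, 6.26 and 6.56 in WT. KO replicates 3 and 5 were high and the other KO arrays overlapped WT, and the log2 difference of 0.53 (SE 0.29, adjusted p = 0.15) was not called. Cox6a1, the general form, had 14.27, 14.02, 14.39 and 14.17 in KO, against 14.82, 14.87, 14.97 and 14.75 in WT. All KO arrays lay below all WT arrays (log2 difference -0.64, SE 0.11, adjusted p = 0.0016). Only 2 of 4 KO arrays and 1 of 4 WT arrays of Cox6a2 lay above a signal of 100, so its WT level is a bound and the change of its ratio to Cox6a1 is not given as a result. Of 10 muscle markers 4 were tested and 1 was called higher, Tnnt1 (slow skeletal troponin T), by 0.90 and with all KO arrays above all WT arrays. Acta1 and Actc1 were highest in KO replicates 3 and 5, whereas Tnni1 was not. The summed signal of the markers was 717 to 1956 in KO and 543 to 650 in WT. Ckm, Myh3, Myh6, Myh7, Tnnt2 and Myl1 stayed below the signal minimum in both group means. The part of muscle RNA in the Cox6a2 signal was not tested.

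Cox7a1, also a heart and muscle form, had log2 signals of 6.81, 7.10, 6.66 and 7.22 in KO, against 7.38, 6.97, 7.18 and 7.07 in WT. The groups overlapped, with a log2 difference of -0.21 (SE 0.15, adjusted p = 0.28), but Cox7a1 was called lower after quantile normalization (-0.64, adjusted p = 0.014) and with scaling to the 75th percentile (-0.47, adjusted p = 0.026). Its general partner Cox7a2 had 14.23, 14.02, 14.42 and 14.09 in KO, against 14.86, 14.78, 14.94 and 14.76 in WT. KO and WT were apart (log2 difference -0.64, SE 0.12, adjusted p = 0.0019), while the ratio of Cox7a1 to Cox7a2 overlapped (change 0.44, p = 0.14, exact permutation test). That change was -0.46 after quantile normalization (adjusted p = 0.076). Cox8c, a testis form, had 7.68, 7.59, 7.76 and 7.67 in KO, against 8.04, 8.46, 7.97 and 7.95 in WT. KO and WT arrays were fully separated, KO lower (log2 difference -0.43, SE 0.13, adjusted p = 0.024), and without KO replicate 3 the call was lost (-0.40, adjusted p = 0.057). Cox8a, its general partner, had 12.51, 12.39, 12.58 and 12.47 in KO, against 12.997, 12.92, 12.91 and 12.81 in WT. It was lower by nearly the same amount (log2 difference -0.43, SE 0.094, adjusted p = 0.0054), and the ratio changed by -0.0038. After quantile normalization the same ratio changed by -0.64 (adjusted p = 0.046). The 3 forms under the signal minimum were Cox4i2, the lung form of subunit 4 (log2 5.76 to 6.45 in KO and 5.57 to 6.23 in WT), Cox7b2 (0.52 to 4.60 in KO and 1.51 to 4.24 in WT) and Cox8b, a heart, muscle and brown fat form (1.10 to 4.08 in KO and 2.17 to 6.24 in WT).

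**Figure D5:**
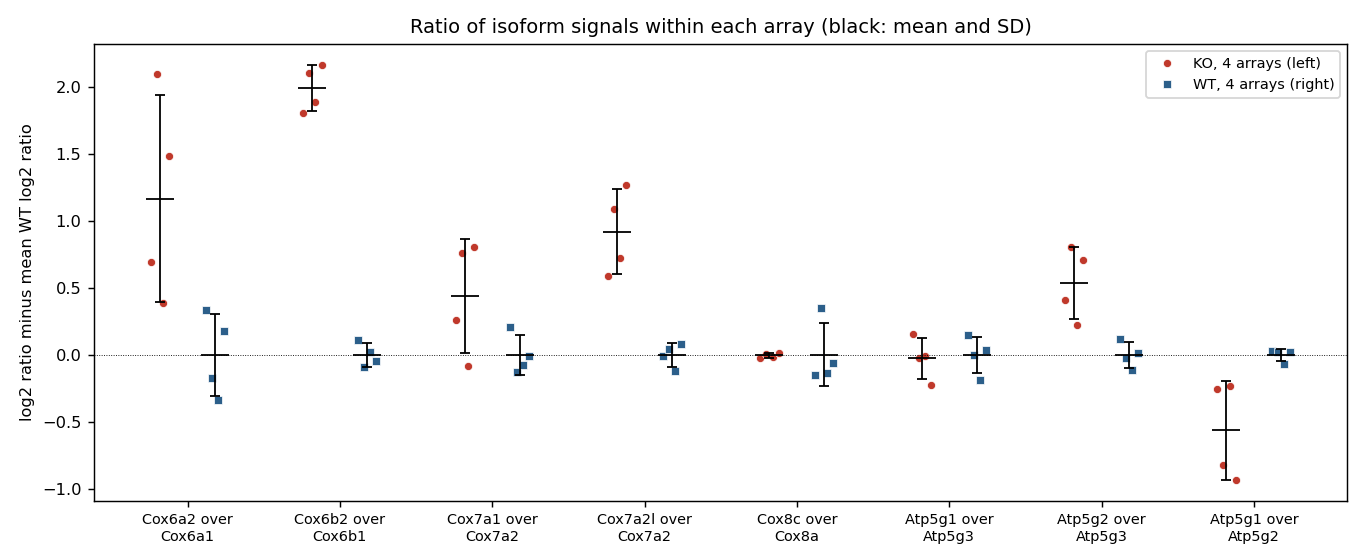
Log2 ratio of the signals of paired isoforms within each array, minus the mean WT ratio of the pair (vertical axis), for 8 pairs in the 4 KO arrays (left of each pair) and the 4 WT arrays (right), with the mean and SD in black. KO and WT do not overlap in Cox6b2 over Cox6b1, Cox7a2l over Cox7a2, Atp5g2 over Atp5g3 and Atp5g1 over Atp5g2, and the points of Cox6a2 over Cox6a1 rest on a WT mean below the signal minimum.

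Cox7a2l, which resembles Cox7a2 and is described as a factor joining complexes III and IV into supercomplexes, did not share the fall of complex IV. Its role in these B6 livers was not examined. The brightest probe set of Cox7a2l had log2 signals of 11.86, 12.15, 12.18 and 12.40 in KO, against 11.88, 11.86, 11.85 and 11.88 in WT. KO replicate 2 lay among the WT arrays and the other 3 KO arrays above them, and the log2 difference of 0.28 (SE 0.12, adjusted p = 0.086) was not called, but without KO replicate 2 it was 0.37 (adjusted p = 0.02). The 2 further probe sets, at 11.97, 12.30, 12.28 and 12.45 in KO against 11.61, 11.74, 11.79 and 11.72 in WT, and at 11.65, 11.93, 12.03 and 11.96 in KO against 11.19, 11.27, 11.40 and 11.32 in WT, were called higher, by 0.53 and 0.59. All KO arrays were above all WT arrays in both. The ratio of Cox7a2l to Cox7a2 was higher in KO by 0.92 on the log2 scale, with no overlap. Quantile normalization gave log2 differences of 0.45 for Cox7a2l, called higher, and -0.18 for Cox7a2, not called.

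In complex V, 11 of 17 genes (64.7%) were lower in KO on the deposited scale and 6 were not called, with a median log2 difference of -0.51. All 17 had a mean log2 signal above 12, where 51.1% of all genes were lower. Above 13, where most of them lay, 274 of 411 genes were lower. The counts differed with the place of the subunit in the enzyme. All 5 accessory subunits of the membrane sector were lower, with a median of -0.67, as were 3 of 4 genes of the peripheral stalk (median -0.59). Of the 5 genes of the catalytic F1 head 1 was called lower (median -0.26), although all KO arrays lay below all WT arrays in 3. Atp5md (DAPIT), a small accessory subunit, had log2 signals of 12.02, 11.51, 11.68 and 11.78 in KO, against 12.70, 12.51, 12.46 and 12.70 in WT. All KO arrays lay below all WT arrays. This gave a log2 difference of -0.84 (SE 0.13, adjusted p = 0.00088), or 1.80-fold. Atp5h, subunit d of the peripheral stalk, had 13.69, 13.68, 13.64 and 13.65 in KO, against 14.48, 14.41, 14.38 and 14.36 in WT. The arrays of each group lay close together and the groups far apart, with a log2 difference of -0.74 (SE 0.085, adjusted p = 0.00018). Atp5j2, subunit f of the membrane sector, had 13.55, 13.28, 13.53 and 13.33 in KO, against 14.06, 14.20, 14.22 and 14.12 in WT, with all KO arrays below all WT arrays. The log2 difference was -0.73 (SE 0.10, adjusted p = 0.00057). All 3 were lower after quantile normalization too, and with scaling to the hybridisation controls their differences lay between -0.096 and 0.020. Of the other genes of complex V, only Atp5mpl was called lower after quantile normalization.

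A dim probe set of Atp5j2 was called in the opposite direction, with log2 signals of 8.02, 7.85, 8.16 and 7.88 in KO, against 7.44, 7.59, 7.69 and 7.74 in WT. All KO arrays lay above all WT arrays there, whereas the other 2 probe sets of the gene were lower in KO. It was the only member with calls in both directions. Of the 25 members with more than 1 tested probe set, 15 had every one called lower, and 4 (Atp5c1, Atp5j2, Sdha and Sdhc) had differences of opposite sign. Counted by probe set, 50 of the 79 tested were lower, 7 were higher and 22 were not called.

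Of the other accessory subunits, Atp5mpl had a log2 difference of -0.67, Atp5k (subunit e) -0.52 and Atp5l (subunit g) -0.30, and all were called lower. In the peripheral stalk, Atp5pb (subunit b) had -0.66 and Atp5o, the oligomycin sensitivity protein that joins the stalk to the head, -0.51, both called lower. Atp5j (coupling factor 6) had -0.22 (SE 0.17, adjusted p = 0.30). In the F1 head, the catalytic beta subunit Atp5b had -0.35 (adjusted p = 0.0503) and the alpha subunit Atp5a1 -0.26 (adjusted p = 0.073). The gamma subunit Atp5c1 had -0.21 (adjusted p = 0.10) and the epsilon subunit Atp5e -0.11 (adjusted p = 0.42). A dimmer probe set of Atp5c1 was called higher in KO (log2 difference 0.77, SE 0.22, adjusted p = 0.018), with all KO arrays above all WT arrays. A dimmer probe set of Atp5a1 was called lower, with 7.46, 7.28, 7.44 and 7.13 in KO, against 8.92, 9.20, 8.62 and 9.20 in WT. The groups were far apart there (log2 difference -1.66, SE 0.15, adjusted p = 6.2e-05), whereas a further probe set had -0.22 and was not called. By the brightest probe set of each gene, only the delta subunit Atp5d of this head passed, at -0.45 (adjusted p = 0.012). No test was made of the difference between the stalk, membrane and head groups.

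The c ring is encoded by 3 genes, Atp5g1, Atp5g2 and Atp5g3, whose mature proteins are identical and whose import sequences differ. Atp5g1 had log2 signals of 12.45, 11.92, 12.61 and 11.86 in KO, against 12.91, 12.81, 12.77 and 12.83 in WT. KO replicates 3 and 5 were far lower than replicates 2 and 4, and all lay below WT (log2 difference -0.62, SE 0.18, adjusted p = 0.017). Atp5g3 had 14.09, 13.73, 14.41 and 13.88 in KO, against 14.56, 14.61, 14.75 and 14.59 in WT. It had the same order of KO arrays, all below WT (log2 difference -0.60, SE 0.15, adjusted p = 0.0099). Atp5g2 had 12.76, 12.81, 12.90 and 12.86 in KO, against 12.95, 12.86, 12.91 and 12.87 in WT. The groups overlapped, with a log2 difference of -0.062 (SE 0.088, adjusted p = 0.57). Within arrays, the ratio of Atp5g2 to Atp5g3 was higher in KO by 0.54 and that of Atp5g1 to Atp5g2 lower by a log2 change of -0.56, both without overlap (adjusted p = 0.046 over 8 pairs and 0.05 over 7). The ratio of Atp5g1 to Atp5g3 changed by -0.024 (p = 0.71, exact permutation test), so the KO arrays separated Atp5g2 from the other c genes. After quantile normalization both ratios with Atp5g2 changed in the same directions, by 0.37 and -0.61, and passed when adjusted over the 8 pairs with Cox6a2 included. The calls of Atp5g1 and Atp5g3 as lower were lost there (limma adjusted p = 0.095 and 0.33). Both calls were also lost with poly-A control scaling, the methods' t-test and the replicate block.

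Proteins that work beside the complexes went the same way on the deposited scale. Of 8 tested carriers and accessory genes 6 were lower in KO and 2 were not called, with a median log2 difference of -0.47. Of all genes with a mean log2 signal above 12, 51.1% were lower. In this list 3 genes were lower after quantile normalization. Cycs, cytochrome c, which carries electrons from complex III to complex IV, had 13.89, 13.51, 13.84 and 13.35 in KO, against 14.63, 14.58, 14.59 and 14.54 in WT. All KO arrays were lower (log2 difference -0.94, adjusted p = 0.00064). Atpif1, the inhibitor of ATP hydrolysis by complex V, had 13.75, 13.66, 13.94 and 13.62 in KO, against 14.54, 14.57, 14.63 and 14.54 in WT, again without overlap (log2 difference -0.83, adjusted p = 0.00026).

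Of the assembly factors of complex IV, 9 of 22 tested genes were lower and 1 was higher (median -0.34), against 21.0% and 25.6% of all genes. The largest falls were those of Cox20, which handles the newly made COX2 protein, at -1.22 (adjusted p = 1.9e-05), and of Cmc2 at -1.16 (adjusted p = 0.0032). Sco2, a copper chaperone, was higher by 0.66 (adjusted p = 0.015). Of 5 tested factors of complex V, 3 were lower and 2 were not called (median -0.36), with Atpaf2, which helps to assemble the F1 head, at -0.80 and Fmc1 at -0.37. Among 10 tested factors of complexes II and III, 2 were lower (Uqcc3 at -0.57 and Sdhaf3 at -0.49), 1 was higher (Hccs, the heme lyase of the c-type cytochromes, at 0.32) and 7 were not called, with a median of -0.037. After quantile normalization the 3 assembly lists had 8, 2 and 3 genes lower, and 1 factor of complexes II and III was higher. Under scaling to the hybridisation controls their medians were 0.40, 0.39 and 0.71.

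Of 15 tested regulators of respiratory genes, 1 was lower and 4 were higher in KO, against 21.0% and 25.6% of all genes. The share called higher was thus close to that of all genes. Their median log2 difference was 0.13 (-0.010 after quantile normalization). Ppargc1b, a coactivator of mitochondrial genes, had 8.09, 8.01, 7.67 and 7.79 in KO, against 7.27, 7.56, 7.26 and 6.65 in WT. All KO arrays were higher (log2 difference 0.71, adjusted p = 0.015). Gabpb1, a subunit of the ETS-type factor GABP, was higher by 0.68 (adjusted p = 0.0075), and Nrf1 and Esrra, chosen after their values were seen, by 0.60 and 0.53. After quantile normalization Ppargc1b (0.28, adjusted p = 0.31) and Esrra (0.18, adjusted p = 0.26) were no longer called, while Gabpb1 and Nrf1 were. Pprc1, a related coactivator, was lower, at -0.77 (adjusted p = 0.0012).

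Cell type markers were read in the same arrays, where 21.0% of all genes were called lower and 25.6% higher in KO. Of 6 erythroblast markers 5 were lower in KO, and their summed signal was 34993 to 38104 in KO and 78873 to 80525 in WT. Of 6 hepatocyte markers 5 were lower (sum 124068 to 158517 in KO and 202102 to 227008 in WT). All 6 hepatocyte markers had a mean log2 signal above 13, where 274 of 411 genes were lower. Endothelial markers (5 of 6 higher) summed to 3768 to 5046 in KO and 2559 to 2885 in WT, and those of smooth muscle and mesenchyme (5 of 6 higher) to 10750 to 17842 in KO and 7549 to 8604 in WT. Of 4 megakaryocyte markers 2 were higher (sum 25134 to 31661 in KO and 22050 to 25101 in WT), and of 6 macrophage markers 1 was lower (sum 8121 to 14408 in KO and 10774 to 13027 in WT). After quantile normalization 5 erythroblast markers and 0 hepatocyte markers were lower in limma (1 at an unadjusted p under 0.05, and 0 by the methods' t-test). The part of cell composition in the differences of the members was not tested. Hybridisation controls averaged 11.68 ± 0.13 in KO and 12.43 ± 0.084 in WT (SD, n = 4 arrays each, exact permutation test, p = 0.029), and poly-A controls 8.03 ± 0.27 and 7.94 ± 0.067 in KO and WT (p = 0.57, exact permutation test). The log2 signal of 18S ribosomal RNA was 8.0 ± 0.35 in KO and 11.90 ± 0.093 in WT, and the 3′ to 5′ difference of Actb was 0.55 ± 0.062 in KO and 0.85 ± 0.080 in WT. For Gapdh the 3′ to 5′ difference was close in both groups, at -0.20 ± 0.034 in KO and -0.16 ± 0.055 in WT. Klf1 itself averaged 10.65 ± 0.11 in KO and 13.95 ± 0.076 in WT (log2 difference -3.29, adjusted p = 5.9e-07). The place of its probe set in the engineered locus was not known here.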

How the data were processed

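RNA of 4 KO and 4 WT fetal livers was hybridized to Affymetrix mouse arrays. The deposited values are linear intensities, MAS5.0 signals that the authors computed for every probe set. The methods name a smaller design of this array than the 45101 probe sets of the table. MAS5 and R 3.0.2 are named in the submitters' processing notes. The trimmed mean (2% left out at each end) is 500 in all 8 arrays. Symbols came from the platform annotation, which can be old. All 47 members matched a gene of the RefSeq table of GRCm38.p6, where 16 overlap another gene.

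The log2 of the intensities was taken without a pseudocount. Probe sets with a KO or WT mean above a signal of 100 were tested with limma 3.58.1 (lmFit, eBayes, two-sided) in R 4.3.3, with genotype as the only term and control probe sets left out. The step was tested on simulated data. Nothing in the labels says that the livers came from separate litters, so p-values measure the spread between these samples. The number of arrays limits the precision. Members and gene lists were chosen with earlier results of these data known. Array values were given for complex II, the 3 largest called falls and rises in each other complex, isoform pairs and members called in both directions, and further lists gave their 2 largest called rises and falls. The text gives array values of some further genes of these lists. Alternatives were quantile normalization, 3 other scalings, pseudocounts of 16 and 64, no filter and a minimum of 200, limma with trend and robust options, the methods' t-test, each array left out in turn, a block for the replicate number, the median of a gene's probe sets, and leaving out _x_at and _s_at probe sets. Figures were drawn with matplotlib.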

Additional observations from a re-analysis of the deposited data

Results flagged for a closer look

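Sdhd in WT replicate 1 lay apart from the other WT arrays, with a log2 signal of 12.27 against 12.54 to 12.56. The gap to the nearest WT array was 0.93 of the whole range of the 4 WT arrays, above the critical value of Dixon's test for 4 samples. It was 1 of 88 groups of 4 arrays examined in the 44 tested members, and chance alone marks about 5% of such groups. Without WT replicate 1 Sdhd was lower in KO by a larger amount and was called.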

How the results depend on the processing

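The scalings by 1 factor per array moved all genes alike and left the members 0.54 below the median of all genes, whereas quantile normalization left a gap of 0.088. Quantile normalization gave 10 genes lower and 4 higher, with median log2 differences of -0.18 (all members), -0.017 (complex II), -0.084 (III), -0.18 (IV) and -0.16 (V). Scaling to the 75th percentile gave 40 lower and 1 higher, with medians of -0.75, -0.51, -0.68, -0.80 and -0.78. Scaling to the poly-A controls gave 18 lower and 1 higher. Scaling to the hybridisation controls gave 0 lower and 18 higher (limma, 0 lower at an unadjusted p under 0.05), with medians of 0.27, 0.50, 0.33, 0.21 and 0.23. It turned these log2 differences positive: Sdha 0.65, Sdhb 0.22, Sdhd 0.36, Uqcr10 0.15, Cox6c 0.029, Cox4i1 0.032, Atp5h 0.0045, Atp5j2 0.020, Cox6a1 0.11, Cox6b1 0.22, Cox7a1 0.54, Cox7a2 0.11, Cox8c 0.32, Cox8a 0.32, Atp5g1 0.12, Atp5g2 0.69 and Atp5g3 0.15. After quantile normalization the ratio of Cox6a2 to Cox6a1 changed by 0.29 (Cox6a2 lay below the signal minimum in WT, so no call rests on it) and that of Cox8c to Cox8a by -0.64 (now passing). Adjusted over the 7 pairs without Cox6a2, an alternative chosen after seeing the data, the changes of Cox6b2 to Cox6b1 (1.99), Cox7a2l to Cox7a2 (0.92), Atp5g2 to Atp5g3 (0.54) and Atp5g1 to Atp5g2 (-0.56) no longer passed. The cause was not tested beyond the signal range given above.

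The median of complex IV was -0.64 at a minimum of 200. That of complex III was -0.30 with the median of a gene's probe sets and -0.55 without _x_at and _s_at probe sets, where 4 members were higher. Leaving out each array gave 26 to 32 members lower and 2 to 3 higher. Of 523 alternative values of named genes, 445 counted as the same, 50 lost the call, 11 gained it and 17 reversed. A change of sign counted as the same where neither value was called. This was so for Sdha (0.16) and Atp5g2 (0.20) after quantile normalization. All genes had 4152 lower and 1466 higher calls (26.1% higher) at the 75th percentile, 39.1% higher after quantile normalization and 96.4% higher with hybridisation controls, against 54.9% on the deposited scale.

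Same-numbered KO and WT arrays did not deviate together (correlations of -0.00084, -0.082 and -0.027 for numbers 2, 3 and 4). These correlations gave no sign of a pairing by number, but they cannot exclude a shared effect that is small against the spread of the arrays. With the replicate number as a block, which only numbers 2 to 4 inform, 13 members were lower and 1 higher, 10 named genes losing their call. Cox6a2 and Cox7a1 lay close to the signal minimum, where little signal stands over background.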
